A study of Mus musculus with 6 samples.

Results

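Duct cells of the mouse pancreas were picked out of 6 single-cell RNA sequencing libraries by the genes they expressed. A cell barcode was a member when it held at least 200 genes, at most 20% mitochondrial unique molecular identifiers (UMIs, each counting 1 captured RNA molecule) and UMIs of at least 4 of the 8 duct genes Krt7, Krt8, Krt18, Krt19, Epcam, Tm4sf4, Sox9 and Clu. In addition, 11 acinar enzyme genes had to make up less than 10% and 5 islet hormone genes less than 5% of its UMIs. The rule found 344 duct cells among the 4929 barcodes that passed the gene and mitochondrial limits, out of 8582 deposited barcodes. Because the cells were selected on these measured levels, the levels of these genes and the contrast with other cells are given below as description. The rule genes also entered the tests between groups, which were run over all genes, and their values there are description too.

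Pancreatic ducts carry the enzyme-rich juice of the acinar cells to the intestine and add bicarbonate and water to it. Ion channels and exchangers on the duct cell surface, among them the chloride and bicarbonate channel Cftr, drive that secretion under the hormone secretin. Duct cells bear a primary cilium, and their identity depends on transcription factors such as Sox9 and Onecut1. Notch signalling through Hes1 keeps pancreatic progenitors from differentiating during development, and inflamed acinar cells can take on duct genes, a change called acinar-to-ductal metaplasia.

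All mice were of the strain R26[CA]30EYFP on the C57Bl/6J background. This strain carries the yellow fluorescent protein EYFP behind a CA repeat at the Rosa26 locus, so that the label appears after a change in repeat length in a dividing cell and depends on no cell-type promoter or Cre. Each of 3 runs gave 1 EYFP positive and 1 EYFP negative library. Run 3 came from pancreatitis, sampled 9 days after cerulein (50 ug/kg, 7 injections a day on 2 days), which overstimulates acinar cells, and runs 1 and 2 came from untreated homeostasis. The study set labelled against unlabelled cells in both states. Pancreatitis and run 3 cannot be told apart, and the labels do not say whether libraries came from separate animals, so every p-value measures only the spread between these libraries. The tables' features held 0 rows for the EYFP transgene, and the sort was therefore not checked in the counts.

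EYFP positive runs 1, 2 and 3 gave 114, 29 and 15 duct cells with 1644495, 398158 and 394962 UMIs, against 28, 148 and 10 duct cells with 279449, 1080509 and 98444 UMIs in EYFP negative runs 1, 2 and 3. The median duct cell held 12670, 9997 and 20818 UMIs in the EYFP positive libraries and 11714, 6350.5 and 1412.5 UMIs in the EYFP negative ones. EYFP negative run 3, the only unlabelled pancreatitis library, thus had the fewest duct cells and duct UMIs and the lowest median duct depth. Of its duct UMIs, 1 cell of 58164 UMIs made up 59.1%. Without the shallower copies of shared barcodes, described below, its median was 12311 UMIs, against 12433 and 7753.5 in EYFP negative runs 1 and 2. Over all barcodes this library held the most counts, at 23658431 UMIs.

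Membership was not close for most cells. All 8 duct genes were seen in 168 members, 7 in 108, 6 in 32, 5 in 24 and 4 in 12, while 19 cells just outside held 3. The enzyme limit removed 20 cells with 4 or more duct genes, at a median of 47.6% enzyme UMIs, and 13 of those lay in EYFP negative run 3. The hormone limit removed 5. Nearest below the enzyme limit lay the 58164-UMI cell of EYFP negative run 3, with 8.54% enzymes.

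Both libraries of a run shared cell barcodes, 141 within runs against 5 across runs, and in 31 of the shared pairs both barcodes were duct cells. In 30 of these pairs the EYFP negative barcode was the shallower. It held 1.57% to 1.76% of the UMIs of its EYFP positive partner in run 1 (4 pairs), 7.28% to 9.96% in run 2 (20 pairs) and 2.49% to 2.82% in run 3 (6 pairs). The ratio kept within a narrow range in each run. Leaving out the 31 shallower copies left 313 duct cells, and only 4 in EYFP negative run 3. The copies held 1.66%, 2.92% and 6.79% of the duct UMIs of EYFP negative runs 1, 2 and 3. Haemoglobin was an exception to these small shares, as Hbb-bs had 378 UMIs in EYFP negative run 3 and 26 once the copies and the single cells described next were left out.

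A few cells carried whole sets of genes. Of 10750 genes with at least 20 UMIs in duct cells, 77 had more than 50% of them in 1 cell, and these genes belonged to 11 cells. The cell richest in such genes came from EYFP positive run 3 and was called a doublet by Scrublet. It held 469 of all 471 UMIs of Slpi, a secreted protease inhibitor, 28 of 28 of the mesothelial gene Msln, 70 of 74 of Upk3b and 0 of Spp1. In EYFP negative run 2, 1 cell held 476 of 477 UMIs of the goblet cell peptide Tff3, 198 of 198 of Agr2 and 59 of 59 of Guca2b, and another held 95 of 110 of the enterocyte fatty acid binding protein Fabp1 and 147 of 209 of Lypd8. Both also lacked Spp1. A cell of EYFP positive run 1, also called a doublet by Scrublet, held 120 of 136 UMIs of the interferon-induced gene Ifit3. It also held 21 of 21 of Mx1 and 429 UMIs of Spp1. The 58164-UMI cell of EYFP negative run 3 held 1394 of 2687 UMIs of the chymotrypsinogen gene Ctrb1 and 522 of 901 of the trypsinogen Try5. Results that rest on shared barcodes or on these cells are given again for the 302 duct cells left without the 31 copies and the 11 cells, a choice made after seeing the data. That set kept 112, 26 and 14 EYFP positive cells and 24, 123 and 3 EYFP negative cells.

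Spp1, a duct marker that the rule did not use and that encodes the secreted phosphoprotein osteopontin, was seen in 340 of the 344 cells. Clu, the chaperone clusterin and a gene of the rule, was also seen in 340. Summed over duct cells and scaled to the duct UMIs of each library as CPM, Spp1 stood at 22320, 25872 and 22286 CPM in EYFP positive runs 1, 2 and 3 and at 20358, 27597 and 22764 CPM in EYFP negative runs 1, 2 and 3. Spp1 supplied more than 2% of all duct UMIs in each library, and the groups overlapped. Clu had 6970, 7582 and 10697 CPM in the EYFP positive libraries, against 7067, 7269 and 7090 CPM in the EYFP negative ones.

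The simple-epithelium keratins Krt18 and Krt8 ranged over the 6 libraries from 1920 to 2790 and from 1869 to 2258 CPM. Krt19 ranged from 203 to 499.8 CPM and Krt7 from 89.5 to 244 CPM. The membrane protein Tm4sf4 lay between 1422 and 2512 CPM, the adhesion molecule Epcam between 1097 and 1854 CPM and Sox9 between 588 and 1270 CPM. With each cell reduced to 1500 UMIs (316 duct cells, with 28 shallower ones left out, and 847 of 975 B cells as a type that should lack these genes), Spp1 was seen in 97.5% of duct cells and 2.48% of B cells. Krt8 was seen in 93.0% and 0.826%, Sox9 in 64.2% and 0.118%, and Krt19 in 43.0% and 0.236%. Median depths before thinning were 9998.5 UMIs in duct cells and 5000 in B cells. Of these 4 genes only Spp1 was outside the rule, and the other shares follow from the selection.

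**Figure D1:**
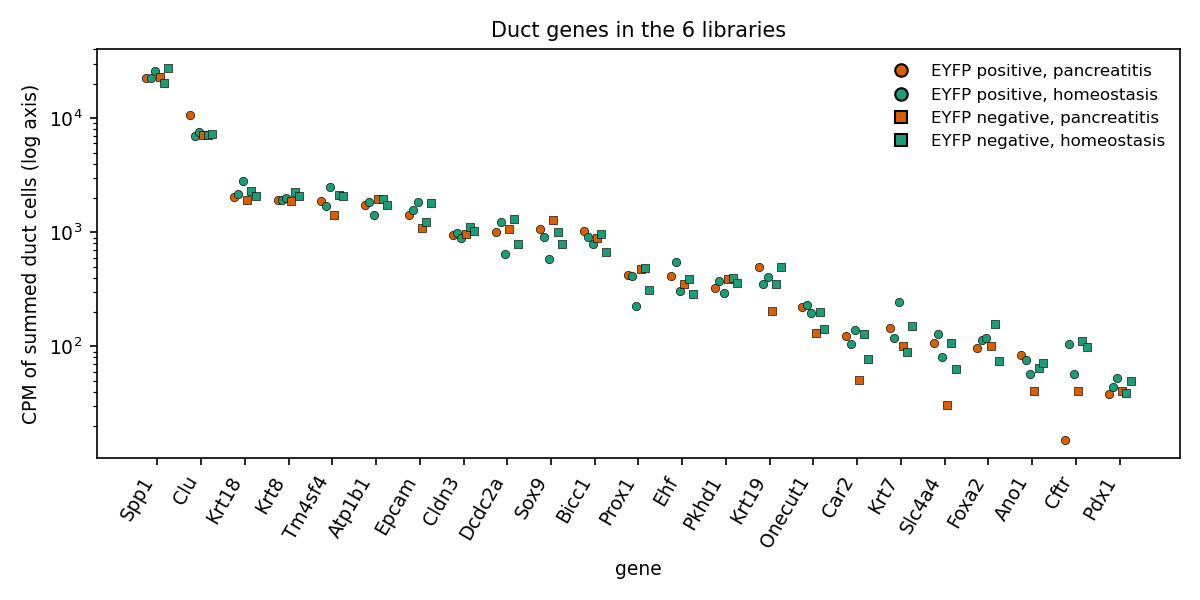
Level in CPM (log axis) of 23 duct genes in the summed duct cells of each library, with circles for EYFP positive and squares for EYFP negative libraries, orange for pancreatitis and green for homeostasis. Spp1 and Clu lie at or above 6970 CPM in every library, and Cftr is lowest in the EYFP positive pancreatitis library, at 15.2 CPM.

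Set against all other kept cells of the same library, the genes with the largest ratios were again duct genes, and some of them were not part of the rule. Over 1179 genes with at least 100 CPM in the duct cells of every library, Spp1 had the largest mean log2 ratio, 8.81 ± 1.30 (SD, n = 6 libraries), followed by Tm4sf4 with 8.56 ± 0.95. Next came the apolipoprotein Apoc1 with 8.27 ± 0.66, the plasma protease inhibitor precursor Ambp with 8.04 ± 1.40 and the ciliary doublecortin Dcdc2a with 8.02 ± 1.05. The leading 25 also held the junction and adhesion genes Cldn3, Dsg2, Dsp and Cxadr, the keratin Krt23, the transcription factors Prox1 and Onecut1, and Pkhd1, whose human counterpart is mutated in recessive polycystic kidney disease. The glucose carrier Slc5a1, at 7.12 ± 0.17, and the acute-phase protein Crp, at 6.95 ± 0.22, were among those that varied least between libraries. In the other cells Slc5a1 reached at most 0.497 CPM and Crp at most 0.249 CPM, below the 1 CPM added to both sides. Their ratios therefore mostly follow the duct level and are limited by that 1 CPM, so the small SD does not show a steady contrast.

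Promoters were available from RefSeq (GRCm38.p6) for 18 of these 25 genes. They were searched on both strands for TGANTCA, since Fos is described below. This is a loose form of the site of AP-1, the dimer of Fos and Jun factors, and accepts any base at the centre. A match was held by 1 of the 18 genes, Crp, as TGATTCA, and whether AP-1 binds there was not tested. Among all 32851 promoters of the same length 7.81% held a match. The promoters of Crp and of the 2 genes with the largest ratios are printed 5′ to 3′ along the gene, with any match in capitals. Each covers 250 bases before and 50 bases from an annotated start on the plus strand, at chr1:172697806-172698105 for Crp, chr5:104434861-104435160 for Spp1 and chr3:57425160-57425459 for Tm4sf4.
Crp: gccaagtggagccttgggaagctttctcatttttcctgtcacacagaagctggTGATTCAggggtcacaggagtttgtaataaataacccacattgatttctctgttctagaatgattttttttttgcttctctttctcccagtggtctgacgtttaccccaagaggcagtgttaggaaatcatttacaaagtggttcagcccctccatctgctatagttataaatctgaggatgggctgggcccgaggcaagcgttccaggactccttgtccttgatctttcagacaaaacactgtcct
Spp1: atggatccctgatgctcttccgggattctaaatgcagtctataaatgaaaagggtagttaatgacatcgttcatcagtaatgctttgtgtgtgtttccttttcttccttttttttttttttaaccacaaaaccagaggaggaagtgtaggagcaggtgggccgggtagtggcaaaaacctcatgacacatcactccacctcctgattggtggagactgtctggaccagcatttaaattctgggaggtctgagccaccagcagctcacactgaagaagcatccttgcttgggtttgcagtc
Tm4sf4: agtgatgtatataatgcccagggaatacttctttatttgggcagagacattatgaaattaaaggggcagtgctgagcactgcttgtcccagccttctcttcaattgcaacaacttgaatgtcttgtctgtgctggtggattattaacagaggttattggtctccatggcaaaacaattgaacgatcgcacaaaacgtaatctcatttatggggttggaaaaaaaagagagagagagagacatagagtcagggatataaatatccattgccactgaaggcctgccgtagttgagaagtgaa

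Taken as a list, the secretory machinery kept an even share of duct UMIs, while its single genes were less even. The 32 genes listed for bicarbonate, chloride and water transport together made up 0.416% to 0.527% of duct UMIs in all 6 libraries. Cftr ranged from 15.2 to 111 CPM. The sodium pump subunit Atp1b1 ranged from 1419 to 1940 CPM. Cytosolic carbonic anhydrase Car2 ranged from 50.8 to 138 CPM, the sodium bicarbonate cotransporter Slc4a4 from 30.5 to 128 CPM, the calcium-activated chloride channel Ano1 from 40.6 to 83.6 CPM and the potassium channel Kcnq1 from 71.1 to 141 CPM. The secretin receptor Sctr reached at most 30.4 CPM, the water channel Aqp5 91.2 CPM and Aqp1 25 CPM. The chloride bicarbonate exchangers Slc26a3 and Slc26a6 had 1 and 8 UMIs in all duct cells.

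Transcription factors of duct and pancreas made up 0.376% to 0.492% of duct UMIs. Prox1 ranged from 226 to 487 CPM, the epithelial Ets factor Ehf from 291 to 549.7 CPM, Onecut1 from 132 to 231 CPM and the forkhead factor Foxa2 from 74.0 to 158 CPM. Pdx1, a factor of pancreatic progenitors and beta cells, kept within 38.0 to 52.7 CPM. Nr5a2, which acinar cells also use, ranged from 97.2 to 194 CPM, whereas the acinar factors Ptf1a and Bhlha15 had 11 and 2 UMIs in all. Among genes of the primary cilium and kidney cyst diseases, Pkhd1 ranged from 296 to 394 CPM, Bicc1 from 678 to 1018 CPM and Pkd2 from 60.3 to 117 CPM. Muc5b and the stem cell receptor Lgr5 had 0 UMIs.

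The share of duct cells addressed which cells carry the label. Duct cells made up 13.7% (95% exact binomial interval 11.4% to 16.2%), 15.5% (10.6% to 21.5%) and 6.30% (3.57% to 10.2%) of the kept cells of EYFP positive runs 1, 2 and 3. In EYFP negative runs 1, 2 and 3 they made up 6.39% (4.29% to 9.11%), 8.39% (7.13% to 9.78%) and 0.682% (0.328% to 1.25%). The intervals cover counting error only. Both run 3 libraries held the lowest share of their EYFP group, and the groups overlapped, since EYFP positive run 3 lay below EYFP negative runs 1 and 2. The mean was 11.8% ± 4.87 in EYFP positive and 5.15% ± 4.0 in EYFP negative libraries (SD, n = 3 each), a difference of 6.67 percentage points that did not pass a two-sided exact permutation test (p = 0.3, where 0.1 is the smallest p that 3 against 3 allows).

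Within runs the EYFP positive library had the higher share in 3 of 3 pairs, by 7.26, 7.12 and 5.62 points in runs 1, 2 and 3 (exact sign-flip test p = 0.25, the smallest 3 pairs allow). Without the shallower copies the means were 12% ± 5.06 and 4.45% ± 3.74, the difference was 7.58 points (exact permutation p = 0.2), and the differences within runs were 8.28, 8.42 and 6.03 points. Duct share in EYFP negative run 3 was then 0.275% (0.0751% to 0.703%). Without cells that held 2 markers of another cell type the means were 5.05% ± 3.45 in EYFP positive and 2.78% ± 2.05 in EYFP negative libraries, and the difference fell to 2.27 points (exact permutation p = 0.4). The enzyme limit touched that library most, as the 13 cells it removed there outnumber the 10 members.

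**Figure D2:**
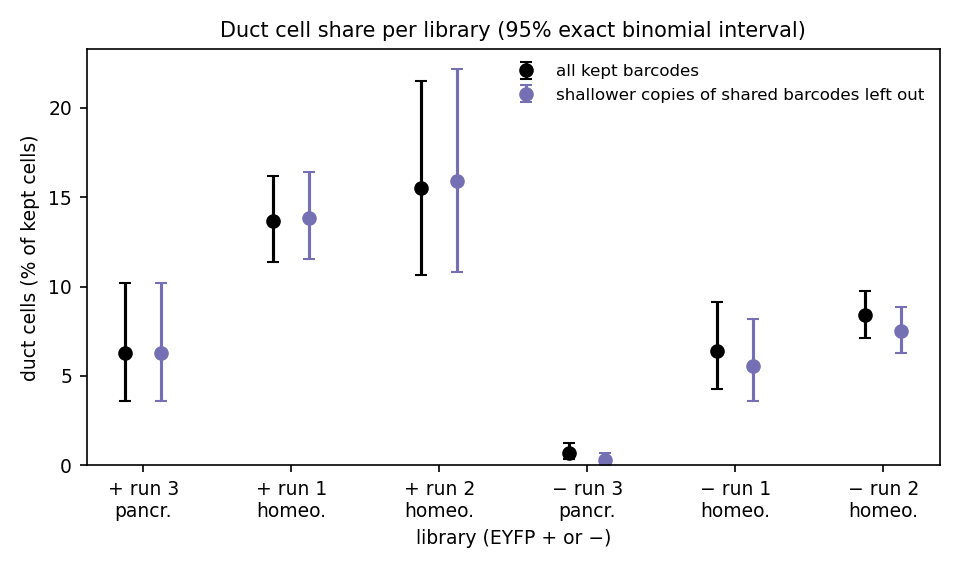
Duct cells as a percentage of kept cells in each library, EYFP positive (+) left of EYFP negative (−) and pancreatitis (pancr.) left of homeostasis (homeo.), with 95% exact binomial intervals, black for all kept barcodes and purple without the shallower copies of shared barcodes. The EYFP positive library lies above the EYFP negative library of the same run in all 3 runs, with 15.5% as the highest and 0.682% as the lowest share.

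EYFP positive and EYFP negative duct cells differed in few genes, and none of them was on the duct surface, transport or transcription factor lists. Of 8177 genes tested on UMI counts summed per library, 0 were higher and 9 lower in EYFP positive duct cells (0.11% of genes called, edgeR's quasi-likelihood test with Benjamini-Hochberg adjustment, threshold 0.05). At an unadjusted p under 0.05 stood 181 genes, and DESeq2 called 0 higher and 4 lower. Of 32 tested surface, secreted and junction genes, 22 transport genes and 26 transcription factors 0 were called, which at 0.11% of all genes is near the background. Their median log2 fold changes were −0.04, −0.14 and −0.07, against 0.00 over all genes, and that of the 8 rule genes was 0.13. The log2 fold change of Cftr was −0.45 ± 0.31 (SE) and that of Spp1 −0.06 ± 0.21. With the run as a block the test called 5 genes higher and 15 lower (0.0611% and 0.183%, or 0.245% in all), and in the 302 cells 1 higher and 13 lower of 8584 genes (0.0116% and 0.151%, or 0.163% in all). Leaving out EYFP negative run 1, EYFP negative run 2 or EYFP positive run 2 gave 24, 27 and 19 calls.

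Immunoglobulin genes, which B and plasma cells make, were lower in EYFP positive duct cells. Igkc, the kappa light chain constant region, had 25.5, 12.6 and 7.60 CPM in EYFP positive runs 1, 2 and 3 (42, 5 and 3 UMIs), against 480 (134 UMIs), 322 (348 UMIs) and 71.1 CPM (7 UMIs) in EYFP negative runs 1, 2 and 3. The groups did not overlap. Its log2 fold change was −4.12 ± 0.34 (SE, adjusted p = 2.16e-06 by edgeR's test), and −3.49 ± 0.40 in the 302 cells (adjusted p = 4.40e-09). The groups overlapped in the 302 cells, since Igkc had 26.1, 13.2 and 8.07 CPM in EYFP positive and 415, 172 and 0 CPM in EYFP negative runs 1, 2 and 3, and run 3 went the other way. Ighm, the heavy chain of IgM, had 8, 0 and 0 UMIs in the EYFP positive libraries and 19, 76 and 1 in the EYFP negative ones (log2 fold change −4.25 ± 0.55, adjusted p = 6.72e-04). Igkc in the other kept cells moved the same way, with 10022, 3668 and 1101 CPM in EYFP positive runs 1, 2 and 3 against 60539, 24923 and 4463 CPM in EYFP negative runs 1, 2 and 3. The part of RNA from those cells in the duct result was not tested. Leukocyte markers other than immunoglobulins made up 0.00073%, 0.003265% and 0.000506% of duct UMIs in EYFP positive runs 1, 2 and 3. In EYFP negative runs 1, 2 and 3 they made up 0.00966%, 0.0140% and 0.00305%, so the EYFP positive library was the lower in each run. In the 302 cells run 3 went the other way, with 0.000269% in the EYFP positive and 0% in the EYFP negative library.

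All 4 haemoglobin genes tested, products of red blood cells, were lower as well. Hbb-bs, a beta chain, had 6.69, 52.7 and 241 CPM in duct cells of EYFP positive runs 1, 2 and 3, against 46.5, 525 and 3840 CPM in EYFP negative runs 1, 2 and 3. Run 3 was highest in both groups, and within each run the EYFP positive value was the lower (log2 fold change −3.93 ± 0.67, adjusted p = 0.0151 by edgeR's test). Hba-a2, Hba-a1 and Hbb-bt fell by 4.88, 4.64 and 4.04 on the log2 scale. Leaving out only the shallower copies ended all 4 calls, with log2 fold changes of −2.60, −3.15, −3.19 and −2.40 for Hbb-bs, Hba-a2, Hba-a1 and Hbb-bt (adjusted p 0.235, 0.116, 0.111 and 0.644 by edgeR's test). They were −2.64, −3.26, −3.23 and −2.45 in the 302 cells (adjusted p 5.75e-05, 5.75e-05, 5.32e-05 and 0.0284). There Hbb-bt in run 3 was higher in the EYFP positive library, at 51.1 against 29.8 CPM. In the other kept cells of the same libraries Hbb-bs stood at 780, 3269 and 15188 CPM in EYFP positive and 9626, 10942 and 75885 CPM in EYFP negative runs 1, 2 and 3, and its part in the duct values was not tested.

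The other 3 called genes lay in few cells. Tmem212, a transmembrane gene of motile cilia, had 1, 0 and 0 UMIs in EYFP positive runs 1, 2 and 3 and 35, 23 and 0 in EYFP negative runs 1, 2 and 3, so that summed CPM was 96.9-fold lower in EYFP positive cells (95% counting interval 16.7 to 3894). Its UMIs lay in 6 duct cells, and the interval treats UMIs as independent and leaves out the spread between cells. Agr2 and Tff3 had 0 UMIs in EYFP positive duct cells, at least 110-fold and 266-fold lower against a floor of 3 counts over the group. However, 198 of the 198 Agr2 and 476 of the 477 Tff3 UMIs came from the single Spp1-negative cell of EYFP negative run 2, and neither gene was tested once that cell was left out. Leaving out EYFP positive run 1 ended the calls of Agr2, Tff3, Tmem212, Hbb-bs and Hba-a1 (adjusted p 0.0612 to 0.724 by edgeR's test), leaving out EYFP positive run 3 that of Hbb-bs (0.0544) and leaving out EYFP negative run 2 that of Ighm (0.142).

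Values that were not called in all 344 cells moved past the threshold in some settings. Fos, an immediate-early gene, had 288, 1371 and 1112 CPM in EYFP positive and 268, 311 and 1290 CPM in EYFP negative runs 1, 2 and 3, and its log2 fold change was 0.90 ± 0.45 (adjusted p = 1.0 by edgeR's test). In the 302 cells it was 1.71 ± 0.33 (adjusted p = 0.00133). Of 23 tested immediate-early and dissociation genes 19 had positive values, with a median of 0.30 against 0.00 over all genes, and 0 were called. That list made up 1.35% of duct UMIs in EYFP positive run 2 and 0.57% to 1.004% in the other 5 libraries. Anxa3, an annexin, stood at 1.22 ± 0.36 (adjusted p = 1.0, and 0.0228 with the run as a block).

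Mitochondrially encoded genes ran the other way. They made up 3.69%, 2.77% and 3.17% of duct UMIs in EYFP positive runs 1, 2 and 3, against 4.52%, 5.25% and 4.05% in EYFP negative runs 1, 2 and 3, without overlap. The largest value among them was that of the cytochrome oxidase subunit mt-Co3, with 5037, 3245 and 4750 CPM in EYFP positive and 8506, 9207 and 7283 CPM in EYFP negative runs 1, 2 and 3. Its log2 fold change of −1.0 ± 0.23 was not called by edgeR's test (adjusted p = 0.205), and was with the run as a block (adjusted p = 0.0118). None of the 13 genes was called, and their median was −0.54.

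**Figure D3:**
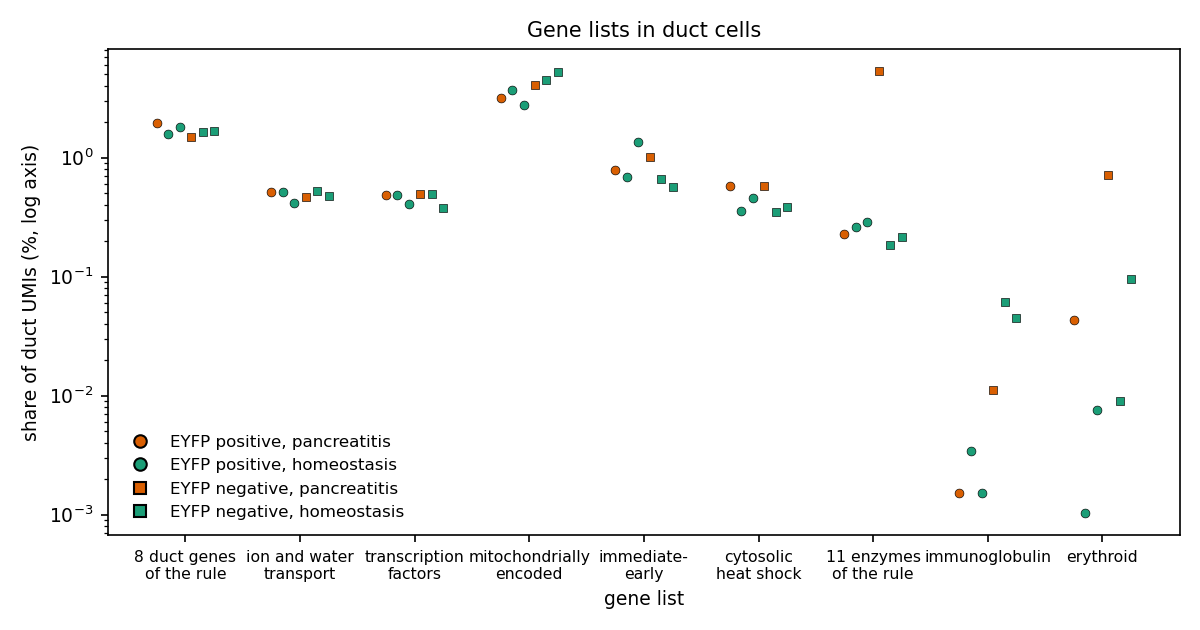
Share of duct UMIs (%, log axis) taken by each gene list in each library, with circles for EYFP positive and squares for EYFP negative libraries, orange for pancreatitis and green for homeostasis. Duct, transport and transcription factor lists lie close together, while immunoglobulin genes are lower in all EYFP positive libraries and the 11 enzymes reach 5.30% in the EYFP negative pancreatitis library, against 0.186% to 0.290% in the others.

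Pancreatitis was set against homeostasis with EYFP in the model. Igfbpl1 and Abcg2 were the 2 genes that fell in pancreatitis duct cells, and of 14 that rose most were carried by 1 cell or by red blood cell transcripts. In all 16 of 8177 genes were called (0.196%, with 0.171% higher and 0.0245% lower, edgeR's quasi-likelihood test with Benjamini-Hochberg adjustment), 441 stood at an unadjusted p under 0.05, and DESeq2 called 3 higher and 3 lower, none of them among the 16, and left the adjusted p of 6341 genes as not available. Leaving out EYFP negative runs 1 and 2, EYFP positive run 2, or EYFP positive or negative run 3, each alone, gave 57, 54, 53, 42 and 26 calls, and leaving out EYFP positive run 1 gave 10. In the 302 cells 6 were higher and 10 lower of 8584 genes (0.0699% and 0.116%, or 0.186% in all), with 4 genes shared with the 16. The 8 rule genes had 2 positive and 6 negative values and a median log2 fold change of −0.21, against −0.03 over all genes.

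Igfbpl1, which encodes a secreted protein related to the insulin-like growth factor binding proteins, had 7.60 and 0 CPM in the EYFP positive and EYFP negative pancreatitis libraries. Against this it had 110 and 77.9 CPM in EYFP positive runs 1 and 2, and 118 and 99.0 CPM in EYFP negative runs 1 and 2 in homeostasis. Both pancreatitis libraries lay below all 4 homeostasis libraries. With 3 UMIs in pancreatitis and 352 in homeostasis, summed CPM was 17.0-fold lower (95% counting interval 5.77 to 82.9), and the fitted log2 fold change was −4.02 ± 0.56 (adjusted p = 0.0012). It was spread over 124 duct cells, of which the richest held 2.54% of its UMIs. It passed in the 302 cells (−3.81 ± 0.65, adjusted p = 3.90e-04), without the copies (adjusted p = 0.00105) and with any 1 library left out (adjusted p 2.75e-05 to 0.0354). At the depth of the EYFP negative pancreatitis library, 0 UMIs allows up to 30.5 CPM in all cells and 89.3 CPM in the 302 cells.

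Abcg2, an efflux transporter of the ATP-binding cassette family, had 0 UMIs in both pancreatitis libraries. In homeostasis it had 53 and 14 UMIs in EYFP positive and 14 and 28 in EYFP negative runs 1 and 2, or 25.9 to 50.1 CPM. It was at least 5.27-fold lower in pancreatitis, against 3 counts over the group (adjusted p = 0.0424), although the 0 UMIs of the EYFP negative pancreatitis library alone allow up to 30.5 CPM, above the lowest homeostasis value. It missed the threshold without the copies (adjusted p = 0.0524), was past it in the 302 cells (adjusted p = 0.0191), and was past it in 4 of the 6 fits that left out 1 library. The adjusted p was 0.104 without EYFP positive run 1 and 0.60 without EYFP positive run 3, and 0.00458 at the lowest.

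Among the 14 genes called higher, 8 were led by the Spp1-negative cell of EYFP positive run 3. Slpi had 469 UMIs in the EYFP positive and 0 in the EYFP negative pancreatitis library, against 2 in the 4 homeostasis libraries. Upk3b, Gm12840, Igfbp6, Igfbp5, S100a6, Rarres2 and Muc16 followed the same cell, and Klf2 had 35 of its 87 UMIs there. Mesothelial markers made up 0.102% of duct UMIs in EYFP positive run 3 and at most 0.00398% in the other libraries, with 3 of 7 tested markers called higher (Igfbp6, Muc16 and Upk3b), and 0.0035% in EYFP positive run 3 without that cell. Klk1, a tissue kallikrein, had 11 and 45 UMIs in EYFP positive and negative pancreatitis, and 45 of its 98 duct UMIs were in the 58164-UMI cell. The other 4 were the haemoglobin genes, which were also higher in the other cells of run 3 and of which 0 were called without the copies (adjusted p 0.128 to 0.498). Without EYFP positive run 1 the adjusted p of Igfbp5, S100a6, Rarres2, Muc16, Gm12840, Klf2, Klk1 and Hbb-bs rose to 0.0596 to 0.308, without EYFP positive run 3 that of Igfbp5 and Klf2 to 0.919 and 0.86, and without EYFP negative run 3 that of Klk1, Hbb-bs and Hba-a1 to 0.999, 0.123 and 0.0774. The log2 fold changes of S100a6 and Rarres2 were then −6.82 and −1.32 without EYFP positive run 3.

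**Figure D4:**
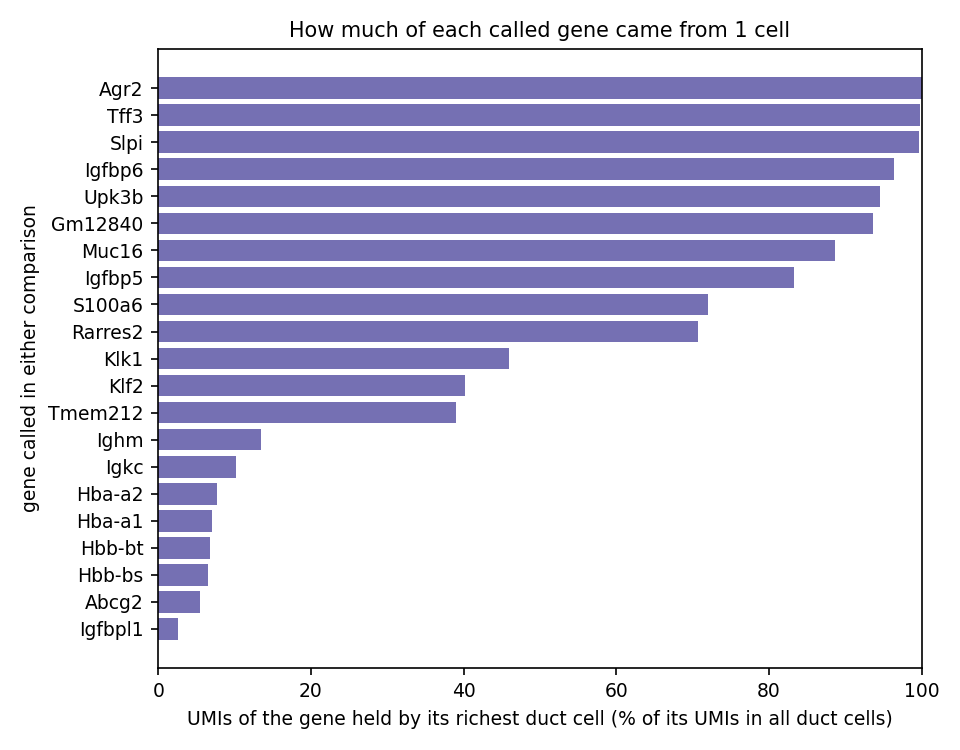
For each gene called between EYFP groups or between pancreatitis and homeostasis, the percentage of its duct UMIs that came from its richest single cell. Agr2, Tff3, Slpi, Igfbp6, Upk3b and Gm12840 draw over 90% from 1 cell, while Igfbpl1 draws 2.54%.

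Cftr and Hes1 had lower values in pancreatitis that depended on which cells were counted. Cftr had 15.2 and 40.6 CPM in the EYFP positive and negative pancreatitis libraries (6 and 4 UMIs), against 105 and 57.8 CPM in EYFP positive and 111 and 98.1 CPM in EYFP negative homeostasis runs 1 and 2. Of the 4 UMIs of EYFP negative run 3, 3 came from the 58164-UMI cell, and the 3 cells of that library in the set of 302 held 0, 1 and 0. Both pancreatitis values lay below all 4 others, but the log2 fold change of −2.05 ± 0.45 was not called by edgeR's test in all cells (adjusted p = 0.0838). In the 302 cells it was −2.41 ± 0.54 (adjusted p = 0.0219), and in all cells it passed without EYFP negative run 1, EYFP negative run 2 or EYFP positive run 2 (adjusted p 0.0182, 0.02 and 0.0149). Of the 22 transport genes tested with it, 0 were called in all cells and 13 were negative, with a median of −0.09.

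Hes1, the Notch effector, had 329 and 223.5 CPM in EYFP positive and negative pancreatitis, against 980 and 620 CPM in EYFP positive and 590 and 465.5 CPM in EYFP negative homeostasis runs 1 and 2, again without overlap. The log2 fold change was −1.25 ± 0.29 (adjusted p = 0.113 by edgeR's test), and −1.69 ± 0.35 in the 302 cells (adjusted p = 0.00671). In that set the 3 cells of EYFP negative run 3 held 1, 0 and 1 Hes1 UMIs, while the 58164-UMI cell left out held 19. Of 8 tested Notch genes 6 were negative, with a median of −0.68, and 0 were called. Gmnn, an inhibitor of DNA replication licensing, had 88.6 and 122 CPM in EYFP positive and negative pancreatitis and 216 to 364 CPM in homeostasis (−1.49 ± 0.34, adjusted p = 0.106, and 0.0145 in the 302 cells). In EYFP negative run 3 the 58164-UMI cell held 8 Gmnn UMIs, and the 3 cells in the set of 302 held 2, 1 and 0.

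Other genes were called in the 302 cells and not in all 344. Apoc1 fell by 1.61 on the log2 scale (SE 0.34, adjusted p = 0.00865), against −0.51 ± 0.38 in all cells (adjusted p = 0.966). In EYFP negative run 3 it had 5 UMIs in the 302 cells and 66 in all cells. The circadian factor Dbp fell by 3.29 (adjusted p = 0.0145), the immediate-early gene Ier2 by 1.52 (adjusted p = 0.0273) and the receptor phosphatase Ptprb by 3.22 (adjusted p = 0.0303). Xist, the RNA of the inactive X chromosome, had 142 and 0 CPM in EYFP positive and negative pancreatitis and 223.5 to 1424 CPM in homeostasis, and fell by 2.85 (adjusted p = 1.54e-04). In all cells Xist, Ptprb and Dbp passed in 4, 3 and 1 of the 6 fits that left out 1 library. Ddx3y, a gene of the Y chromosome, had 0 UMIs in both run 1 libraries, 42.7 and 13.9 CPM in EYFP positive and negative run 2, and 73.4 and 91.4 CPM in EYFP positive and negative run 3. Both genes follow the sex of the mice, which the labels do not give, and the part of sex in the pancreatitis values of other genes was not tested.

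Higher in the 302 cells were Nupr1, Tmem45a, Hspa1a and Hspa1b, besides Hba-a2 and Hbb-bs. Nupr1, a stress-induced chromatin regulator first described in inflamed rat pancreas, had a log2 fold change of 1.91 ± 0.34 (adjusted p = 8.32e-04), but 127 of its 149 UMIs in EYFP negative run 3 came from 1 cell of 8971 UMIs. In the EYFP positive pancreatitis library it stood at 268 CPM, against 218 and 876.5 CPM in EYFP positive homeostasis. Tmem45a had 29 UMIs in EYFP positive pancreatitis and 5, all from 1 cell, in EYFP negative pancreatitis (2.84 ± 0.51, adjusted p = 8.32e-04, and 2.46 ± 0.54 in all cells, adjusted p = 0.0813).

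The listed heat shock genes encode mostly cytosolic chaperones, with the mitochondrial chaperonins Hspd1 and Hspe1 among them. They were at 0.580% and 0.572% of duct UMIs in EYFP positive and EYFP negative pancreatitis, against 0.345% to 0.46% in the 4 homeostasis libraries. All 13 tested had positive values, with a median of 0.51 against −0.03 over all genes, and 0 were called in all cells. Hspa1a had 182 and 366 CPM in EYFP positive and negative pancreatitis, and 10.9 and 133 CPM in EYFP positive and 3.58 and 87.9 CPM in EYFP negative homeostasis runs 1 and 2, and its log2 fold change was 2.12 ± 0.68 (adjusted p = 0.413). In the 302 cells 10 of 12 tested were positive, with a median of 0.25, and Hspa1a (2.35 ± 0.47, adjusted p = 0.00476) and Hspa1b (1.86 ± 0.44, adjusted p = 0.0405) were called by edgeR's test. In that set all 18 Hspa1a and all 9 Hspa1b UMIs of EYFP negative run 3 came from the same 8971-UMI cell that held Nupr1. At equal depth, 6.33% of duct cells and 41.9% of B cells held Hspa1a.

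Lists tied to injury held few calls, as did all genes (0.196%), so that 0 calls in a list of this size is near the background. Of 17 tested injury and metaplasia genes 1 was called (S100a6, with 162 of 225 UMIs in the Spp1-negative cell of EYFP positive run 3), of 16 YAP and TEAD genes 0, of 8 cell cycle genes 0, of 15 extracellular matrix genes 0 and of 24 interferon and MHC class I genes 0. Of 12 complement and acute-phase genes 8 were positive, with a median of 0.72, and 0 were called. In the 302 cells that median was 0.00. The oxidative stress and metallothionein list had 2 positive and 15 negative values, a median of −0.12 and 0 calls, and its largest part, the metallothionein Mt1, stood at −1.52 ± 0.38 (adjusted p = 0.155). Reg3b, a secreted lectin of inflamed acinar cells, had 2 UMIs in all duct cells.

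**Figure D5:**
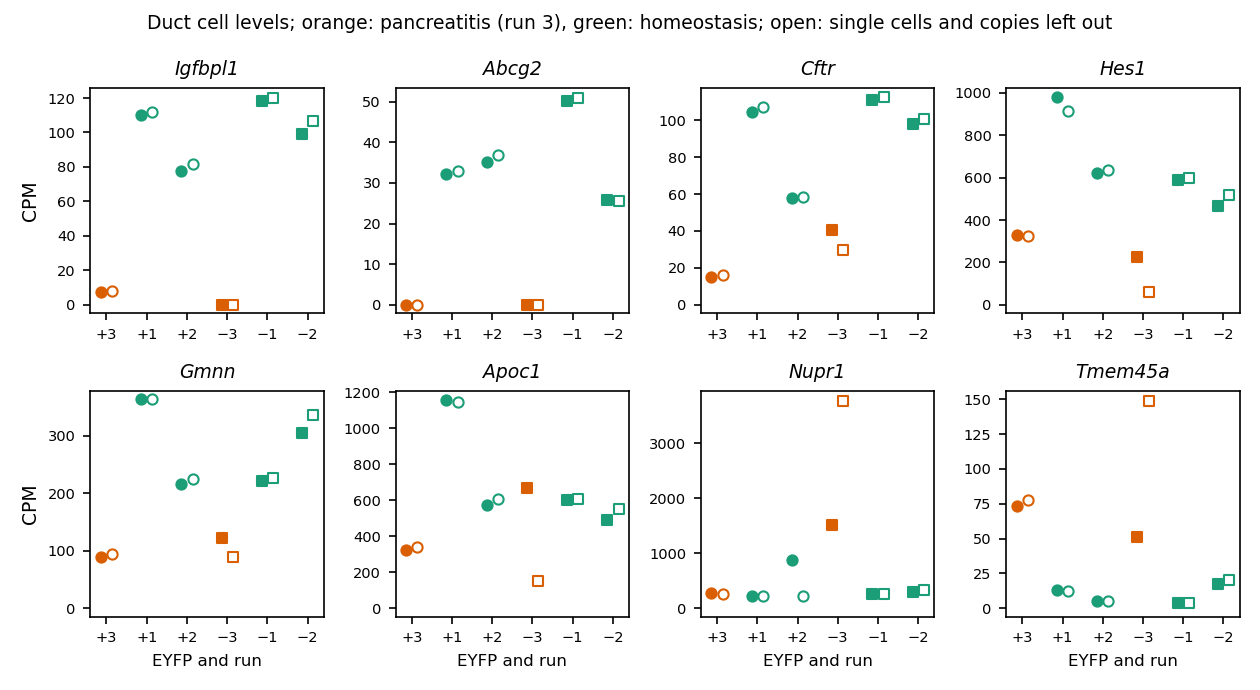
Duct cell level in CPM of 8 genes by EYFP group (+ or −) and run, orange for pancreatitis (run 3) and green for homeostasis, with filled points for all duct cells and open points without the 11 single cells and the copies. Igfbpl1 was measured at 7.60 and 0 CPM and Abcg2 at 0 in pancreatitis, where 0 UMIs in the EYFP negative library allows up to 30.5 CPM in all cells and 89.3 CPM in the 302 cells, while Nupr1 and Apoc1 in the EYFP negative pancreatitis library move with the cells left out.

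The difference between the EYFP effect in pancreatitis and in homeostasis was called for 8 genes higher and 24 lower (0.0978% and 0.294%, or 0.391% of 8177, edgeR's quasi-likelihood test with Benjamini-Hochberg adjustment). Single cells of both pancreatitis libraries led these calls. With the run as a block 12 were higher and 30 lower (0.147% and 0.367%, or 0.514% in all). Of the 8 genes called higher, 6 had over 50% of their duct UMIs in the Spp1-negative cell of EYFP positive run 3 (Slpi, Igfbp6, Igfbp5, S100a6, Rarres2 and Dcn), and without Scrublet doublets, of which it was 1, 0 genes were higher and 24 lower. Without the 58164-UMI cell of EYFP negative run 3 edgeR called 0 genes, with 365 at an unadjusted p under 0.05, and in the 302 cells 1, Nupr1 (−3.09 ± 0.55, adjusted p = 0.0383, 0.0116% of 8584). All 11 enzyme genes of the rule were among the 24, and since the rule capped them and removed 13 enzyme-rich cells from EYFP negative run 3, their values are description. Try5 had 121.5 CPM in EYFP positive and 5455 CPM in EYFP negative pancreatitis, against 99.7 and 116 CPM in EYFP positive and 75.1 and 78.7 CPM in EYFP negative homeostasis runs 1 and 2 (log2 difference −5.99, and −1.86 without the 58164-UMI cell). Enzymes took 5.30% of the duct UMIs of EYFP negative run 3, and 0.339% in its 3 cells that remained in the set of 302. Lone pancreatitis libraries were assumed to vary like the homeostasis libraries in this test.

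Variation among duct cells was described at 1500 UMIs per cell, where the median Fano factor (variance over mean) of 4395 genes was 1.03. Low counts at this depth hold the factor near 1 even where cells differ, so the median does not show how many genes varied. Malat1, a nuclear RNA, had the largest factor at 46.9, and Spp1 had 17.7. Slpi at 36.1, Gsn at 21.6 and Igfbp5 at 15.9 drew 97.4%, 68.9% and 71.0% of their thinned UMIs from 1 cell. Nupr1, at 20.9, was seen in 27.5% of cells, and Fos and Hes1 had factors of 4.93 and 3.83. Hes1 was seen in 54.0% and 48.1% of cells in EYFP positive runs 1 and 2, and in 37.5% and 34.6% in EYFP negative runs 1 and 2. The junction gene Cldn3, the cilium gene Pkhd1 and the pump subunit Atp1b1 had factors of 1.15, 1.34 and 1.40.

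A small set of duct cells carried genes of motile cilia, the beating cilia found in airway and oviduct. By a list of 15 such genes chosen after their values were seen, 12 of 344 cells held at least 8, while 137 held 0. They came from EYFP positive runs 1 and 2 (3 and 1 cells) and EYFP negative runs 1 and 2 (5 and 3 cells), with 0 of 15 and 0 of 10 duct cells in EYFP positive and negative run 3. These cells held 59 of 59 duct UMIs of Tmem212, 73 of 75 of Fam183b and 89 of 157 of Foxj1, the master regulator of motile ciliogenesis. Because the same list picked the cells, these shares follow in part from the selection and are description. Mcidas, also on the list, had 0 UMIs in all duct cells. Not every gene of the list kept to these cells. They held only 45 of 410 duct UMIs of Capsl, 29 of 100 of Enkur, 17 of 83 of Cfap126 and 27 of 55 of Spef2. Their median depth was 6658.5 UMIs and their median number of rule duct genes 7 of 8, and none was a shallower copy of a shared barcode. The call of Tmem212 between EYFP groups thus rested on 6 of these 12 cells, the only duct cells with its UMIs.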

How the data were processed

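Each library was deposited as whole-number UMI counts of genes by barcodes, per the file headers, in 6 matrices with 31053 mouse gene identifiers. Per the submitters' processing notes, Cell Ranger 2.1.0 and GRCh38 were named by the authors, while the file headers give software version 3.1.0, so the build of the mouse reference is unknown here. Total counts per library ranged from 1044718 to 23658431.

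The members, gene lists, tests and most alternatives were chosen with earlier results of these data known. Duct cells were taken by the rule in the text. Doublets were kept, and Scrublet (scanpy 1.11.5, 20 components) called 5 of the 344. Counts were summed per library over duct cells and compared by the quasi-likelihood test of edgeR 4.0.16 (R 4.3.3) after filterByExpr and TMM, adjusting by Benjamini-Hochberg over every tested gene (threshold 0.05). DESeq2 1.42.0 was an alternative. Each SE is the absolute log2 fold change divided by the square root of F. The code was tested on simulated data. CPM were scaled to the duct UMIs of a library. Duct cells were set against other cells with 1 CPM added to both. Intervals are exact at 95%. Figures used matplotlib 3.10.9, and Python 3.11.15, numpy 2.4.6, pandas 2.3.3 and scipy 1.17.1 were used.

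Genes named per comparison were up to 10 per direction with the largest change among those with an adjusted p under 0.05, an average log2 CPM of 5 or more and the same sign in every run, and the 5 of lowest p where fewer than 5 passed. Added were up to 6 members of each list by level and any member called, the 25 largest duct ratios, the 15 largest Fano factors and fixed duct genes. Genes called only in the 302 cells were named after their values were seen.

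Run numbers paired the libraries. Deviations of the 2 libraries of a run from their group means correlated at 0.215, 0.215 and 0.103 in runs 1, 2 and 3 over 8177 genes, all above 0.1, and at −0.177 to −0.040 across runs. Deviations from a group mean cancel over the libraries of that group, so part of this contrast was built in. The sums also still held the copies of shared barcodes. Alternatives are given in the closing section.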

Additional observations from a re-analysis of the deposited data

Results flagged for a closer look

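In duct cells the EYFP effect in pancreatitis differed from that in homeostasis for 32 genes by edgeR's quasi-likelihood test of the difference itself, and the named ones are given here as values. Among enzyme genes the log2 difference was −5.99 for Try5, −5.61 for Pnlip, −5.05 for 2210010C04Rik, −4.75 for Prss2 and −4.73 for Try4. Try5, Pnlip, Prss2 and Try4 were among the enzymes that the rule capped. These genes were high in the EYFP negative pancreatitis library, where 1 cell held 522 of the 901 UMIs that Try5 had in the duct cells of all libraries. In the other direction the differences were 16.3 for Dcn, 15.1 for Igfbp6, 13.1 for C3, 5.97 for Rarres2 and 5.26 for Igfbp5. The Spp1-negative cell of EYFP positive run 3, called a doublet, held 141 of 269 duct UMIs of Dcn, 132 of 137 of Igfbp6, 196 of 277 of Rarres2 and 377 of 453 of Igfbp5. Without doublets 0 genes were called higher and 24 lower. Dcn, Igfbp6 and C3 had 0 UMIs in EYFP negative pancreatitis duct cells, so their fitted sizes depend on the prior count. Without the 58164-UMI cell of EYFP negative run 3 edgeR called 0 genes, with 365 at an unadjusted p under 0.05.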

How the results depend on the processing

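The duct share kept its direction in every alternative tried. The difference was 2.27 to 7.95 points under other rules, filters and denominators, and 4.43 to 9.43 with 1 library left out, where all exact permutation p lay between 0.2 and 0.6.

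The count of genes called between EYFP groups was 9. It was 4 with DESeq2, 21 with cells of 500 or more genes and 10% or less mitochondrial RNA, 61 without a low-count filter, 20 with the run as a replicate block and 5 without enzyme, haemoglobin and immunoglobulin genes. Leaving out 1 library gave 7 to 27 (24, 27 and 19 without EYFP negative runs 1 and 2 and EYFP positive run 2). Chosen after seeing the data, it was 16 without cells with rare markers of another type, 19 without the 58164-UMI cell, 20 without the 11 cells, 5 without the copies and 14 without the 11 cells and the copies together.

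For pancreatitis the count was 16. It was 6 with DESeq2, 6 without Scrublet doublets, 10 and 31 with at least 3 and 5 of the 8 duct genes, 143 without a low-count filter, 30 with sums thinned to the smallest library, 5 without cells with 2 markers of another type and 10 to 57 with 1 library left out. Added later, it was 39 without the 58164-UMI cell, 32 without the 11 cells and 10 without the copies.

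For the difference of EYFP effects the count was 32. It was 19 with DESeq2, 0 without cells with 2 markers of another type and 9 without enzyme, haemoglobin and immunoglobulin genes. Added later, it was 0 without the 58164-UMI cell, 2 without the 11 cells and 1 without cells and copies. Fits that left out 1 library could drop only a homeostasis library, as the difference has no estimate without either pancreatitis library. In the settings with 0 calls by edgeR, 237 and 365 genes stood at an unadjusted p under 0.05. DESeq2 left 5548 adjusted p as not available. With the run as a replicate block it was 42.

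Signs turned round for genes held by single cells. Slpi between EYFP groups was at −1.09 with DESeq2 and −3.39 without EYFP negative run 3, and ran up to 6.50 with another library left out. For pancreatitis, Igfbp5 was at −0.83 without cells with 2 markers of another type, S100a6 at −6.82 without EYFP positive run 3 (up to 4.98 without another library), and Rarres2 (up to 4.63 likewise) at −2.21 without doublets, −1.32 without EYFP positive run 3, −3.06 without the 11 cells and −3.05 without cells and copies. For the difference of effects without cells and copies, 2210010C04Rik was at 0.55, Try4 at 1.83, Prss2 at 0.32 and Igfbp5 at −0.95, Rarres2 was at −1.51 without doublets, and Igfbp5 at −0.59 without doublets, −4.94 and −0.17 without cells with markers and with rare markers of another type and −0.88 without the 11 cells. The cause of the other changes was not tested.

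With 10 duct cells in EYFP negative run 3, of which 4 remain without the copies, statements on unlabelled pancreatitis duct cells rest on few cells. The replicate block was not possible for pancreatitis, whose libraries are all of run 3.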

Other observations

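In 298 duct cells with at least 1500 UMIs, outside the copies and the 11 cells, 5 sub-clusters of 60, 65, 96, 49 and 28 cells were found at a resolution of 0.5. That of 96 cells was led by Apoc1, Gcsh and Hes1, and 63 of them came from EYFP positive run 1. That of 60 cells held 30 EYFP positive and 30 EYFP negative cells. Its leading genes by ratio included the motile cilium genes Fam183b and Tmem212, seen in 11.7% and 8.33% of its cells, and the immediate-early genes Egr1 and Fos, seen in 68.3% and 63.3% of its cells against 18.5% and 14.3% of the other clustered cells. No sub-cluster was compared between groups, since the genes that define them also differ between libraries.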
